A study of Mus musculus with 6 samples.

Results

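The 31 genes described here encode subunits of the ionotropic receptors for GABA, glycine and glutamate, and their transcripts were counted in single cells of the mouse hypothalamic preoptic region. They were taken by gene symbol from the 27998 genes of the count tables, and all 31 were found. The set holds 11 subunits of GABA-A receptors, 4 of glycine receptors, 4 of AMPA receptors, 6 of NMDA receptors, 5 of kainate receptors and the delta receptor subunit Grid1. Other genes of these families were not analysed here. The study made droplet libraries from female and male mice, with 3 libraries of each sex. Each library pooled the tissue of 3 mice, so a library is the unit of replication and mice cannot be told apart within it. All mice were 60 to 70 days old and had been kept singly for 3 days, and the labels give no strain, genetic alteration or treatment. The tissue was dissociated with protease and live cells were sorted before capture.

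These receptors are ion channels that open when a transmitter binds. GABA-A receptors are built from 5 subunits and conduct chloride, as do glycine receptors, in which the beta subunit (Glrb) anchors the channel to the gephyrin scaffold. AMPA, kainate and NMDA receptors are tetramers that conduct cations: AMPA receptors carry most fast excitation, NMDA receptors need the obligatory subunit GluN1 (Grin1) and a co-agonist, and kainate receptors work on both sides of the synapse. Which subunits a cell makes sets the kinetics, the ion permeability and the drug sensitivity of its receptors. In the preoptic region, peptide neurons, many of them GABAergic, control body temperature, sleep, fluid balance and social behaviour. Astrocytes and oligodendrocyte precursors also carry GABA-A and glutamate receptors.

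After the removal of 475 barcodes with under 500 genes or over 20% mitochondrial UMIs, 30824 cells remained. A UMI is 1 captured molecule, read near the 3′ end of the transcript. The libraries held 410 to 9749 of these cells, with medians of 2684 to 6757 UMIs per cell. Female library 3 was the smallest and the shallowest, and male library 3 was the next. Cells were classed by panels of 8 marker genes: 17612 neurons, 720 astrocytes, 1360 oligodendrocyte precursors and 6901 mature oligodendrocytes were used here, and 2394 cells (7.77%) stayed without a class. Transmitter genes split the neurons into 13034 GABA neurons and 1468 glutamate neurons, and 3110 others were left out of that comparison. The values of the panels follow from how the classes were set and are no test of them. The summed astrocyte panel reached 10174 to 14875 CPM (UMIs per 1000000 UMIs) in astrocytes and 24.1 to 91.8 in GABA neurons. The precursor panel reached 6672 to 9065 CPM in precursors and 102 to 269 in astrocytes. The neuron panel reached 61.0 to 1269 CPM in astrocytes and 402 to 1296 in precursors, against 5437 to 6102 in GABA neurons, and its part in the glial levels was not tested.

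Levels are CPM of a class, from UMIs summed over the cells of a library. Because capture at the 3′ end differs between genes, each gene is compared between cells and not with other genes. Differences are log2 values from edgeR's quasi-likelihood test with the library as a covariate, fitted over all genes with enough counts, and "called" means a Benjamini-Hochberg adjusted p under 0.05. A fitted log2 difference is relative to the bulk of genes. It lay below the log2 ratio of CPM by a median of 0.78 in neurons against mature oligodendrocytes, 0.64 in precursors against mature oligodendrocytes, 0.27 in precursors against astrocytes and 0.20 in astrocytes against mature oligodendrocytes, and above it by 0.02 between the neuron classes.

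Most of the subunits were higher in neurons than in mature oligodendrocytes, and a smaller set was high in astrocytes or precursors. Against mature oligodendrocytes, the myelin-forming cells, neurons had higher levels of 28 of the 30 members that could be tested, a lower level of Glrb (log2 difference -1.07 ± 0.10 SE, adjusted p = 1.1e-06) and no call for Grin2c. The median over those 30 was 2.86, beside 0.02 over all 13167 genes tested, of which 84.1% were called, 42.5% higher and 41.6% lower. In astrocytes only 9 of 31 members had enough counts to be tested against mature oligodendrocytes, and 7 were higher and 2 lower, where 66.2% of all genes were called, 33.3% higher and 33% lower. In precursors 18 were tested against mature oligodendrocytes, with 16 higher and 2 lower, where 70.9% of all genes were called, 35.5% higher and 35.4% lower. Precursors against astrocytes gave 6 higher, 6 lower and 5 not called of 17 tested, where 53.9% of all genes were called, 30.7% higher and 23.2% lower. Members pass the count filter more easily through the class where they are high, so these counts describe only the members tested. Leaving out the small female library 3 raised the members testable in astrocytes to 18, of which 14 were called, beside 61% of all genes.

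Between GABA and glutamate neurons the differences were smaller and ran both ways. Of 29 members tested, 10 were higher in GABA neurons, 6 were lower and 13 were not called, where 25.3% of all 12367 genes were called, 12.8% higher and 12.5% lower. Their median was 0.02, beside -0.00 over all genes. This comparison used 5 libraries, because female library 3 held 2 glutamate neurons. The 10 higher members were 3 of 11 GABA-A, 3 of 4 AMPA, 2 of 4 tested NMDA and 2 of 5 kainate subunits. The 6 lower members were 3 of 4 glycine, 2 of 11 GABA-A and 1 of 4 AMPA subunits. A fit without the library term called 8 members in place of 16, and 11.3% of all genes in place of 25.3%.

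One population bears on many of the neuronal values. Of the GABA neurons, 2594 (19.9%) had at least 2 UMIs of Ppp1r1b, which encodes the dopamine-signalling protein DARPP-32 and is known from striatal projection neurons. Ppp1r1b itself stood at 172 to 372 CPM in GABA neurons and 6.86 to 22.7 in glutamate neurons, and the dopamine receptor gene Drd1 at 18.2 to 38.0 and 2.29 to 3.84. The labels name no striatal tissue. Many results are given with and without these cells, a step chosen after seeing the data. A result printed with no second value is given with them only, which does not mean that it stayed the same without them. With the Ppp1r1b cells left out, 11 members were called between GABA and glutamate neurons, where 14.4% of all genes were called.

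The 4 AMPA subunits GluA1 to GluA4 (Gria1 to Gria4) share a pore in which 1 codon, the Q/R site, is the place of known RNA editing. The genome codes glutamine there in all 4 genes, and in GluA2 the transcript is edited to arginine, which makes the channel nearly impermeable to calcium. The stretches below are shown because the AMPA subunits are compared between the cell classes next. They are 42 bases of the GENCODE M21 transcripts on GRCm38, given 5′ to 3′ on the coding strand with the Q/R codon in capitals, at chr11:57243076-57243117 (plus strand), chr3:80706890-80706931 (minus strand), chrX:41610247-41610288 (plus strand) and chr9:4464116-4464157 (minus strand).
Gria1: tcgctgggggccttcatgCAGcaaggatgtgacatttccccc
Gria2: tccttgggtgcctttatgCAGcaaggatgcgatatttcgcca
Gria3: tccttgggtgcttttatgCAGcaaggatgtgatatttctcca
Gria4: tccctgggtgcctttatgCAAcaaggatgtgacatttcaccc
Over these windows Gria1, Gria3 and Gria4 matched Gria2 at 34, 39 and 36 of 42 bases. The UMI counts carry no base at this site, so editing was not measured.

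Gria2 was high in GABA neurons, astrocytes and precursors and low in mature oligodendrocytes. It stood at 765 to 1047 CPM in GABA neurons (median 879, 6 libraries), 583 to 955 in astrocytes (median 693), 508 to 709 in precursors (median 609) and 10.5 to 93.5 in mature oligodendrocytes (median 64.0). The last group did not overlap the others. The fitted difference from mature oligodendrocytes was 3.28 ± 0.18 in astrocytes and 2.65 ± 0.15 in precursors. Precursors were lower than astrocytes in 5 of 6 libraries (-0.44 ± 0.10, adjusted p = 0.00037).

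The other AMPA subunits separated astrocytes from precursors. Gria3 was at 236, 205 and 163 CPM in precursors of female libraries 1, 2 and 3, and at 226, 196 and 202 in male libraries 1, 2 and 3. In astrocytes Gria3 ran from 0 to 27.5 with a median of 12.7, and the groups did not overlap. The difference was 3.49 ± 0.23 (adjusted p = 4.5e-15), and Gria4 gave 3.58 ± 0.24 (adjusted p = 7.4e-15), from 111 to 154 in precursors (median 145) and 0 to 20.3 in astrocytes (median 9.38). Gria1 ran the other way, at 22.7 to 55.0 in precursors (median 43.1) and 102 to 232 in astrocytes (median 146), with no overlap and a difference of -2.05 ± 0.16 (adjusted p = 3.7e-13). Precursors also exceeded GABA neurons in their mean Gria3 level, at 205 ± 25.6 (SD, n = 6) against 95.8 ± 22.1, a contrast that was not tested.

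As shares of AMPA UMIs, Gria2 made up 80.5% ± 4.55 (SD, n = 6) in astrocytes and 61.1% ± 2.06 in precursors. Gria3 and Gria4 took 20.6% ± 1.81 and 14.2% of the AMPA UMIs in precursors, and 1.38% ± 1.17 and 1.05% in astrocytes. In GABA and glutamate neurons Gria2 took 68.2% ± 1.03 and 70.3% ± 0.82 (SD, n = 5), Gria1 18.6% ± 1.35 and 14.7% ± 0.927, and Gria4 5.46% ± 0.464 and 7.33% ± 0.51. Each of these shares differed in one direction in every library that held both classes. None of the 34 shares tested passed after adjustment (smallest adjusted p = 0.0966, exact paired permutation test, two-sided). With 5 pairs this test cannot go below 0.063, and with 6 pairs 0.031.

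**Figure D1:**
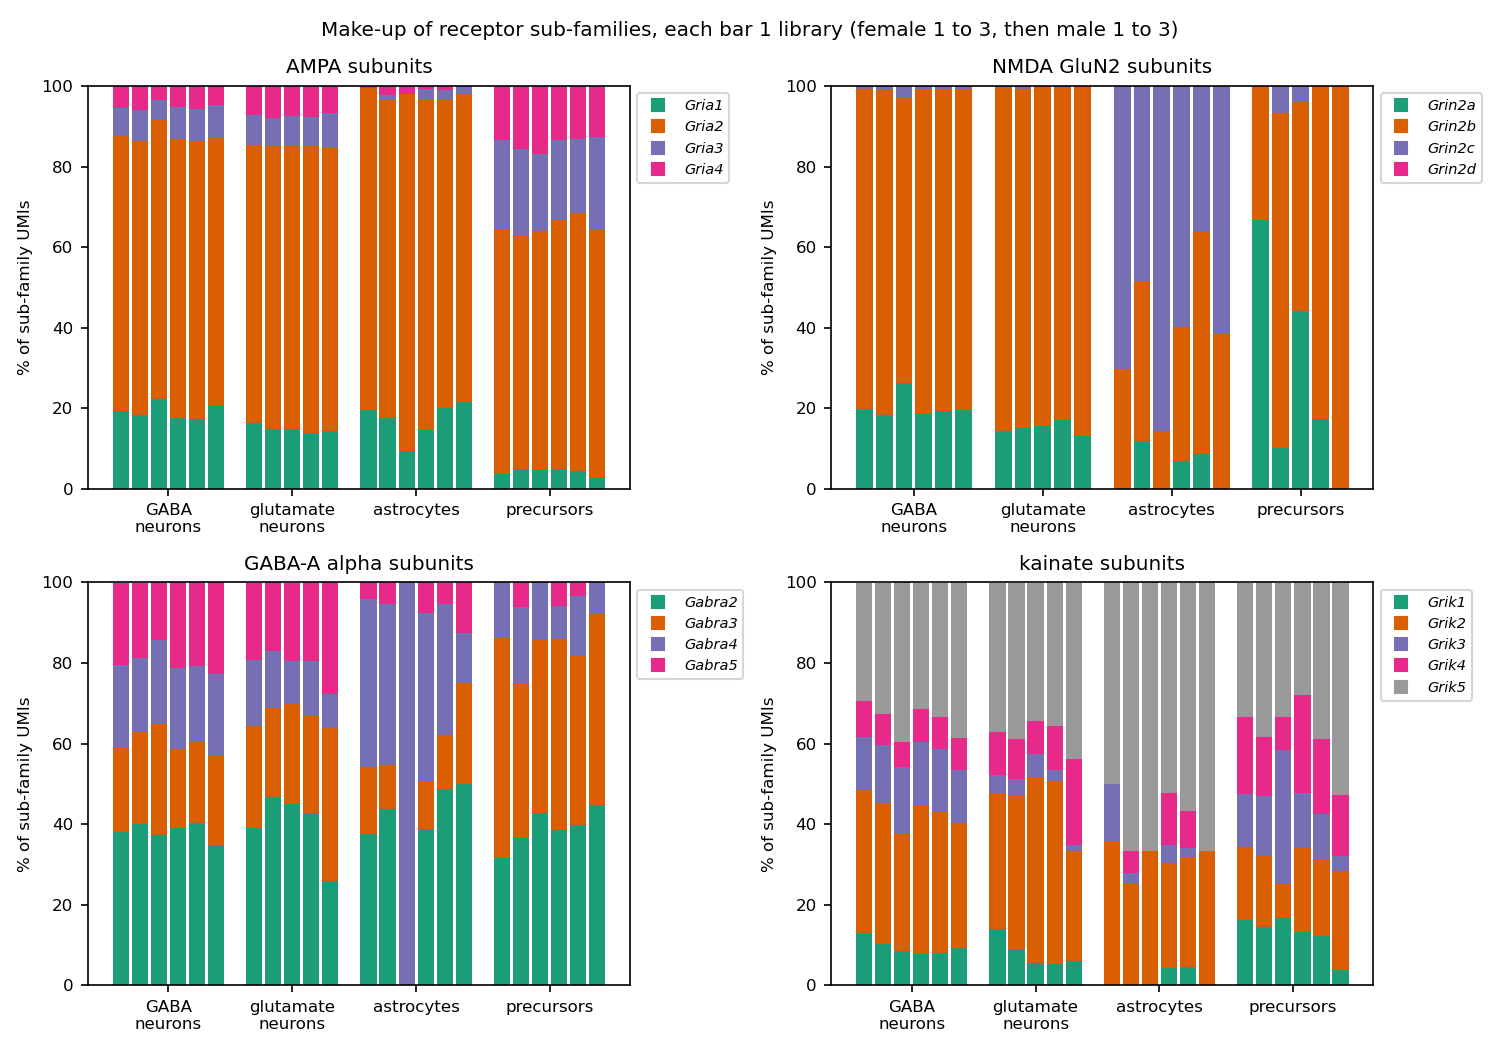
Each bar is 1 library (female 1 to 3, then male 1 to 3, where the class was large enough) and shows the share of each subunit, as % of the UMIs of its sub-family, in GABA neurons, glutamate neurons, astrocytes and precursors. Gria3 and Gria4 fill a band in every precursor library (20.6% and 14.2% on average) that is nearly missing in astrocytes, and Grik3 is wider in GABA neurons (14.4%) than in glutamate neurons (3.65%).

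In neurons, Gria1 was higher in GABA than in glutamate neurons, at 258, 227, 267, 255 and 237 CPM in female libraries 1 and 2 and male libraries 1, 2 and 3, against 179, 160, 204, 179 and 123. The 2 sets did not overlap, and the difference was 0.53 ± 0.05 (adjusted p = 5.0e-10). Gria3 (0.27 ± 0.05) and Gria2 (0.20 ± 0.04, adjusted p = 8.8e-05) were also higher and Gria4 was lower (-0.20, adjusted p = 0.0065), each in 5 of 5 libraries. Without the Ppp1r1b cells the Gria2 difference was 0.05 and was not called.

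GluN1, coded by Grin1 and present in every NMDA receptor, had a mean of 144 CPM in GABA neurons and 152 in glutamate neurons and was not called between them. The GluN2 subunits, which bind glutamate and set the kinetics, differed more. Grin2a was at 48.1, 43.1, 50.2, 50.9 and 35.2 in GABA neurons of female libraries 1 and 2 and male libraries 1, 2 and 3, and at 25.0, 26.5, 27.6, 34.3 and 16.0 in glutamate neurons. GABA neurons were higher in each library, and the lowest GABA value lay above the highest glutamate value, by 0.78 ± 0.08 (adjusted p = 1.1e-08). Grin2b was higher by 0.43 ± 0.05 (adjusted p = 2.3e-08), from means of 192 ± 29.4 and 144 ± 21.7. Without the Ppp1r1b cells Grin2a stayed called at 0.42, and Grin2b was at 0.06 and not called. Grin2d, known from early development and interneurons, had 25 UMIs in all neurons and none in the 3 glial classes above, too few to test.

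Grin2c, coding the GluN2C subunit known from cerebellar granule cells and astrocytes, took the largest mean share of the GluN2 UMIs in astrocytes. Its promoter, taken from RefSeq as the 250 bases before the gene's start on the minus strand of GRCm38.p6 (chr11:115267244-115267493), is shown because the gene was called higher in astrocytes and in Avp and Cck neurons in the comparisons given here. The capitals mark the GC box, GGGCGG or CCGCCC read on both strands.
Grin2c promoter: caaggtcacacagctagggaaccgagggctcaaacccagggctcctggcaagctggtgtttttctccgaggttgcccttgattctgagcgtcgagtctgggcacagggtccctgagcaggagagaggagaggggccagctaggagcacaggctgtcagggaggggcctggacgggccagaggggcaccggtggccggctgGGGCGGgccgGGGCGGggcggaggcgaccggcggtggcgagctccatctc
The window held 2 separate GC boxes at a GC content of 68.8%. A further match, which overlaps the end of the second box, was not counted and is not in capitals. A GC box occurs in 32.7% of 32851 windows of this length from the same table, whose median GC content is 52.4%. The searches for CACGTG (6.02% of windows), CCAAT (33.8%) and TATAAA (12.4%), on both strands, found no match in it, which says only that these letters are not in the window.

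Grin2c stood at 48.2 to 244 CPM in astrocytes (median 58.8). Female library 3, with 37 astrocytes, gave the 244, and the other 5 libraries gave 48.2 to 88.9. Precursors held 3 UMIs in all against 154 in astrocytes, a ratio of pooled levels of 126 with a 95% counting interval of 42.4 to 619. Against mature oligodendrocytes the astrocyte difference was 5.91 ± 0.27 (adjusted p = 1.3e-16), and 5.73 without female library 3. Of the GluN2 UMIs in astrocytes, 60.4% ± 17.1 (SD, n = 6) were Grin2c, with 85.7% in female library 3. In that library precursors had no GluN2 UMI, and over the other 5 libraries Grin2c and Grin2b took 55.3% ± 13.2 and 39.3% in astrocytes and 2.13% and 70.3% in precursors. Grin2b was lower in precursors than in astrocytes (-2.34 ± 0.26, adjusted p = 2.0e-09). Grin1 averaged 15.2 ± 10.5 CPM (SD, n = 6) in astrocytes, from 0 to 26.2, below its levels in both neuron classes.

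Grin3a codes GluN3A, a glycine-binding subunit that lowers calcium entry through NMDA receptors. Precursors had 114, 106 and 67.1 CPM in female libraries 1, 2 and 3, and 101, 124 and 60.6 in male libraries 1, 2 and 3. Astrocytes had 0 to 21.6 (median 18.2), so the groups did not overlap, and precursors were higher by 2.50 ± 0.22 (adjusted p = 8.1e-12). The difference from mature oligodendrocytes was 4.10 ± 0.18. GABA neurons averaged 37.7 and glutamate neurons 42.7, with no call between them.

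**Figure D2:**
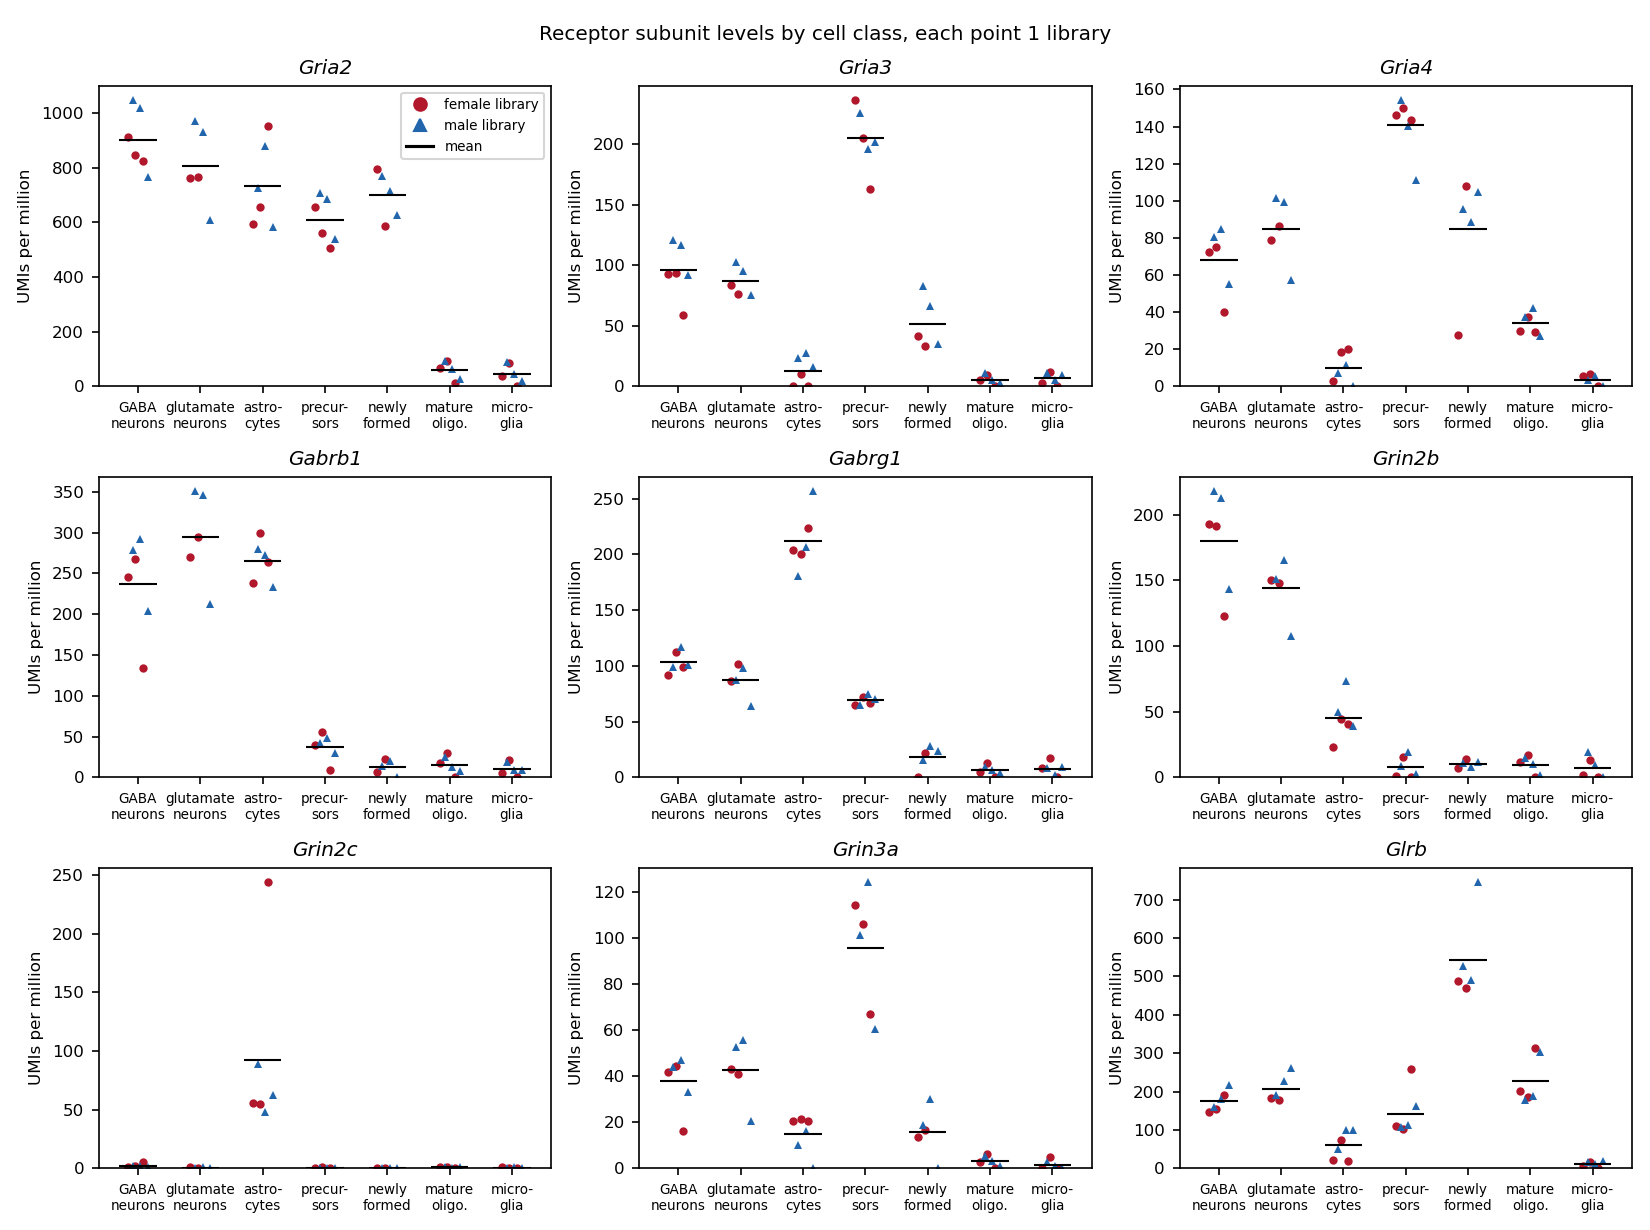
Each point is 1 library (circles female, triangles male), the line is the mean, and the vertical axis gives CPM in 7 cell classes, newly formed oligodendrocytes and microglia included, for 9 subunits. Gria3, Gria4 and Grin3a are highest in precursors, Gabrg1 and Grin2c in astrocytes, with 1 astrocyte library at 244 for Grin2c, and Glrb averages 228 in mature oligodendrocytes beside 175 in GABA neurons.

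Among kainate receptor subunits, Grik3 (GluK3, a low-affinity subunit) marked GABA neurons. It was at 16.7, 21.2, 24.4, 27.2 and 17.6 CPM in GABA neurons and at 4.80, 4.82, 7.74, 4.23 and 2.29 in glutamate neurons of female libraries 1 and 2 and male libraries 1, 2 and 3. The values did not overlap, and the difference was 2.13 ± 0.15 (adjusted p = 3.3e-12), and 2.28 without the Ppp1r1b cells. Grik1 (GluK1) was higher by 0.46 ± 0.13 (adjusted p = 0.0093). Grik2 (GluK2), Grik4 (GluK4) and Grik5 (GluK5, which needs a partner among GluK1 to GluK3) were not called. Their means in GABA and glutamate neurons were 49.2 and 52.2 CPM for Grik2, 11.4 and 16.9 for Grik4, and 49.3 and 51.8 for Grik5. Of kainate UMIs, 14.4% were Grik3 in GABA neurons and 3.65% in glutamate neurons.

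In glia the kainate subunits were mostly too low to test. Grik4 was higher in precursors than in mature oligodendrocytes (2.22 ± 0.21), and so was Grik5 (1.66). Grik1 averaged 16.9 CPM in precursors and 1.25 in astrocytes, and Grik4 22.4 and 3.54, without overlap between libraries and with too few counts to test. Grid1, which codes the delta subunit GluD1, known as an organizer of synapses, was at 19.2 to 49.5 in precursors (median 43.1) and averaged 12 ± 7.37 in astrocytes. Precursors were higher by 1.24 ± 0.25 (adjusted p = 7.6e-05), and by 3.41 ± 0.24 than mature oligodendrocytes. Grid1 was not called between GABA and glutamate neurons.

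The GABA-A members sit partly in gene clusters. On GRCm38, Gabrg1, Gabra2, Gabra4 and Gabrb1 lie in this order on chromosome 5, with Gabra4 and Gabrb1 head to head and overlapping by 196 bases. Gabrg3 and Gabra5 neighbour each other on chromosome 7, and Gabre, Gabra3 and Gabrq on the X chromosome. No source used here gives the strand setting of the counting, so UMIs from the short Gabra4 and Gabrb1 overlap could be split between them. That overlap lies at the starts of both genes, and such a split was not tested.

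Astrocytes had high levels of 2 GABA-A subunits. Gabrb1, the beta1 subunit of the pore, was at 233 to 300 CPM in astrocytes (median 269), 9.58 to 55.9 in precursors (median 41.2) and 134 to 292 in GABA neurons (median 257). Gabrg1, the gamma1 subunit, was at 181 to 256 in astrocytes (median 205), 64.7 to 74.3 in precursors (median 68.9) and 91.9 to 117 in GABA neurons (median 100). Astrocytes lay above precursors for both genes without overlap, and above GABA neurons without overlap for Gabrg1. Precursors were lower than astrocytes by -2.85 ± 0.13 for Gabrb1 (adjusted p = 2.2e-19) and -1.80 ± 0.12 for Gabrg1 (adjusted p = 9.5e-15). Against mature oligodendrocytes astrocytes were higher by 3.71 ± 0.17 and 4.52 ± 0.19.

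Gabra3, the alpha3 subunit, was higher in precursors than in astrocytes. It averaged 40.7 ± 10.6 CPM in precursors and 10.0 ± 5.26 in astrocytes, a difference of 1.66 ± 0.27 (adjusted p = 3.1e-06). It took 45.5% ± 5.68 of the UMIs of the 4 alpha genes measured here in precursors and 13% ± 8.15 in astrocytes, while Gabra4 (alpha4) took 13% and 44.7%. Gabra2 (alpha2) took 39.0% and 36.4%. As with the other shares, none of these could have passed after adjustment. Gabra5 (alpha5) averaged 2.38 and 4.59 CPM in these classes and 61.8 ± 14.4 in GABA neurons.

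Between the neuron classes Gabrd had the largest difference of all members tested. It codes the delta subunit, which with alpha4 forms receptors outside the synapse that carry tonic current. Its levels were 18.1, 13.7, 18.1, 18.1 and 17.9 CPM in GABA neurons of female libraries 1 and 2 and male libraries 1, 2 and 3, and 2.40, 1.20, 2.42, 0.423 and 2.29 in glutamate neurons. The sets did not overlap, and the difference was 3.44 ± 0.22 (adjusted p = 3.9e-13). Gabra4 was at 61.8, 57.1, 67.6, 65.9 and 63.4 against 49.0, 44.1, 32.4, 48.2 and 22.9, again without overlap (0.56 ± 0.09, adjusted p = 9.1e-06).

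Both values moved with the Ppp1r1b cells. Without those cells Gabrd averaged 3.13 ± 0.912 CPM in GABA neurons beside 1.75 ± 0.897 in glutamate neurons (0.95 ± 0.33, adjusted p = 0.050, not called). Gabra4 averaged 43.5 beside 39.3 (0.01, not called). Gabrg1 was higher in GABA neurons by 0.21 ± 0.05 (adjusted p = 0.0037) and by 0.30 without them. Gabrb1 was lower (-0.18, adjusted p = 0.0026). Gabrb2, the beta2 subunit, was lower by -0.29 ± 0.10 (adjusted p = 0.023), a call lost without female library 1 (-0.21, adjusted p = 0.16) or male library 1 (-0.27, adjusted p = 0.072). Gabra2, Gabra3, Gabra5, Gabrg3 (gamma3), Gabre (epsilon) and Gabrq (theta) were not called in either direction. Their mean levels in GABA and glutamate neurons were 119 ± 17.6 and 124 ± 33.5 CPM for Gabra2, 72.1 and 67.8 for Gabrg3, 12 and 12.3 for Gabre, and 26.7 and 31.2 for Gabrq. Gabra2 alone of these was called without the Ppp1r1b cells, lower in GABA neurons (-0.19).

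**Figure D3:**
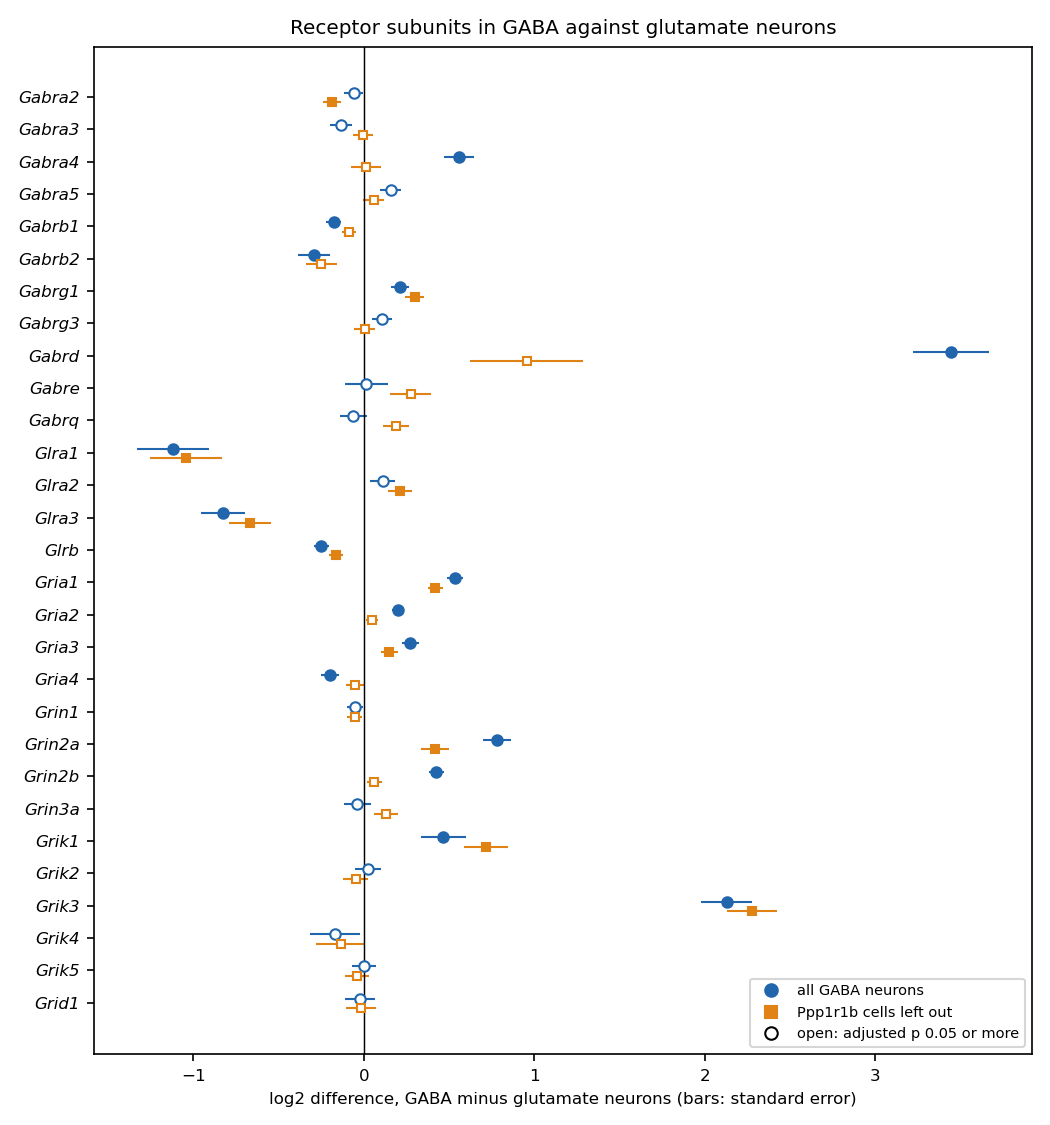
Points give the fitted log2 difference of each tested subunit, GABA minus glutamate neurons, with the standard error, for all GABA neurons (blue circles) and with the Ppp1r1b cells left out (orange squares), and open symbols have an adjusted p of 0.05 or more. Gabrd moves from 3.44 to 0.95 when these cells are left out, while Grik3 stays at 2.13 and 2.28.

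None of the 4 glycine receptor subunits was called higher in GABA than in glutamate neurons. Glra1 (alpha1, the adult brainstem and spinal form) was at 4.19, 3.62, 4.11, 3.49 and 2.23 CPM in GABA neurons and at 8.16, 8.26, 4.35, 12.3 and 6.86 in glutamate neurons of female libraries 1 and 2 and male libraries 1, 2 and 3. Glutamate neurons were higher in each library, and the ranges did not overlap (-1.12 ± 0.21, adjusted p = 0.00015). Glra3 (alpha3) was lower in GABA neurons by -0.83 ± 0.13 (adjusted p = 1.2e-05), from means of 9.24 and 17.2. Glrb was lower by -0.25 ± 0.04 (adjusted p = 5.4e-05), from 172 ± 28.5 and 208 ± 35.1. Glra2 (alpha2, the fetal form that persists in some adult cells) was not called, and without the Ppp1r1b cells it was called higher in GABA neurons, by 0.20.

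Glrb was the 1 member called higher in mature oligodendrocytes than in neurons. That call is relative to the bulk of genes, and the fit lay below the log2 CPM ratio by a median of 0.78 here. In CPM, glutamate neurons ranged from 179 to 261 over 5 libraries, within the range of mature oligodendrocytes. Median depth was 4865 UMIs in mature oligodendrocytes and 7190 in neurons, and Glrb UMIs per cell were not compared. Glrb stood at 201, 187 and 313 CPM in mature oligodendrocytes of female libraries 1, 2 and 3 and at 178, 190 and 302 in those of male libraries 1, 2 and 3, against 111, 102 and 259, and 107, 113 and 162, in precursors of the same libraries. The third library of each sex was the highest in both classes, and the class ranges overlapped although mature oligodendrocytes were higher in each library. Precursors differed by -1.40 ± 0.07 (adjusted p = 5.8e-12) and astrocytes by -1.84 ± 0.18. Precursors were above astrocytes by 0.62 ± 0.19 (adjusted p = 0.0057), a call lost without male library 1 (0.48, adjusted p = 0.077). Glra1, Glra2 and Glra3, whose alpha subunits bind glycine, averaged 0.836, 3.28 and 0.58 CPM in mature oligodendrocytes.

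The Glrb promoter is shown for that reason, as 250 bases before the start on the minus strand of GRCm38.p6 (RefSeq, chr3:80913661-80913910), with the GC box in capitals.
Glrb promoter: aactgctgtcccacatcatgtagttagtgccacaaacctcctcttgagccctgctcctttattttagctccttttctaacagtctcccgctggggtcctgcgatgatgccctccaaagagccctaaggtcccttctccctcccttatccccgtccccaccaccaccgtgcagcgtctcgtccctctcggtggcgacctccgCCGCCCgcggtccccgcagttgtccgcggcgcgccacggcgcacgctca
It held 1 GC box at a GC content of 62.4%, and none of the other 3 motifs. Glrb lies next to Gria2 on chromosome 3, with 40763 bases between them. Gria2 averaged 58.5 ± 34.1 CPM in mature oligodendrocytes beside 902 ± 112 in GABA neurons.

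A list of 36 genes for the partners of these receptors (scaffolds, auxiliary subunits, chloride transporters and clustering proteins) gave differences both ways between the neuron classes, with 9 higher, 8 lower and 18 not called of 35 tested, where 25.3% of all genes were called. The genes with the largest differences were Neto1, an auxiliary kainate subunit (1.43), Cnih3, an AMPA auxiliary subunit (1.20), and Homer1, a postsynaptic scaffold (0.94). Those with the largest lower values were Nptx2 (-2.47) and Nptx1 (-1.30), pentraxins that cluster AMPA receptors, and Shisa6 (-1.98), an AMPA auxiliary subunit. In precursors against astrocytes 8 were higher and 4 lower of 17, where 53.9% of all genes were called, with the largest difference in Cacng4, a TARP that traffics AMPA receptors (4.01). In neurons against mature oligodendrocytes 30 of 35 were higher, where 84.1% of all genes were called, and the largest lower value was that of Slc12a2, the chloride importer NKCC1 (-4.59).

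Neuron types were set by at least 5 UMIs of a peptide, or 3 of an enzyme, and each was compared with the rest of its transmitter class in the same libraries. A cell can count in several types, so the types are not independent. There were 14 types of GABA neurons and 5 of glutamate neurons with enough libraries, and together they gave 221 calls of members. The share of all genes called in a type ran from 1.25% in Nos1 glutamate neurons to 52.6% in Tac1 GABA neurons. Calls over types were not counted for all genes, so the counts per subunit do not single out these members. The subunits with calls in the most types were Gabra5 (6 higher, 7 lower of 19 types tested), Gabra2 (7 higher, 5 lower of 19), Gabrd (4 higher, 7 lower of 14) and Glra2 (5 higher, 6 lower of 19). Grid1 (1 lower of 19), Glra1 (1 lower of 13), Grik4 (2 lower of 19) and Grin2c (2 higher of 5) had the fewest calls, and Grin2d could be tested in none. Over the GABA types, Gria2 ranged from 387 ± 56.5 CPM in Avp neurons to 1227 ± 167 in Tac1 neurons, and Grin2b from 96.2 in Vip neurons to 359 ± 10.1 in Pdyn neurons.

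**Figure D4:**
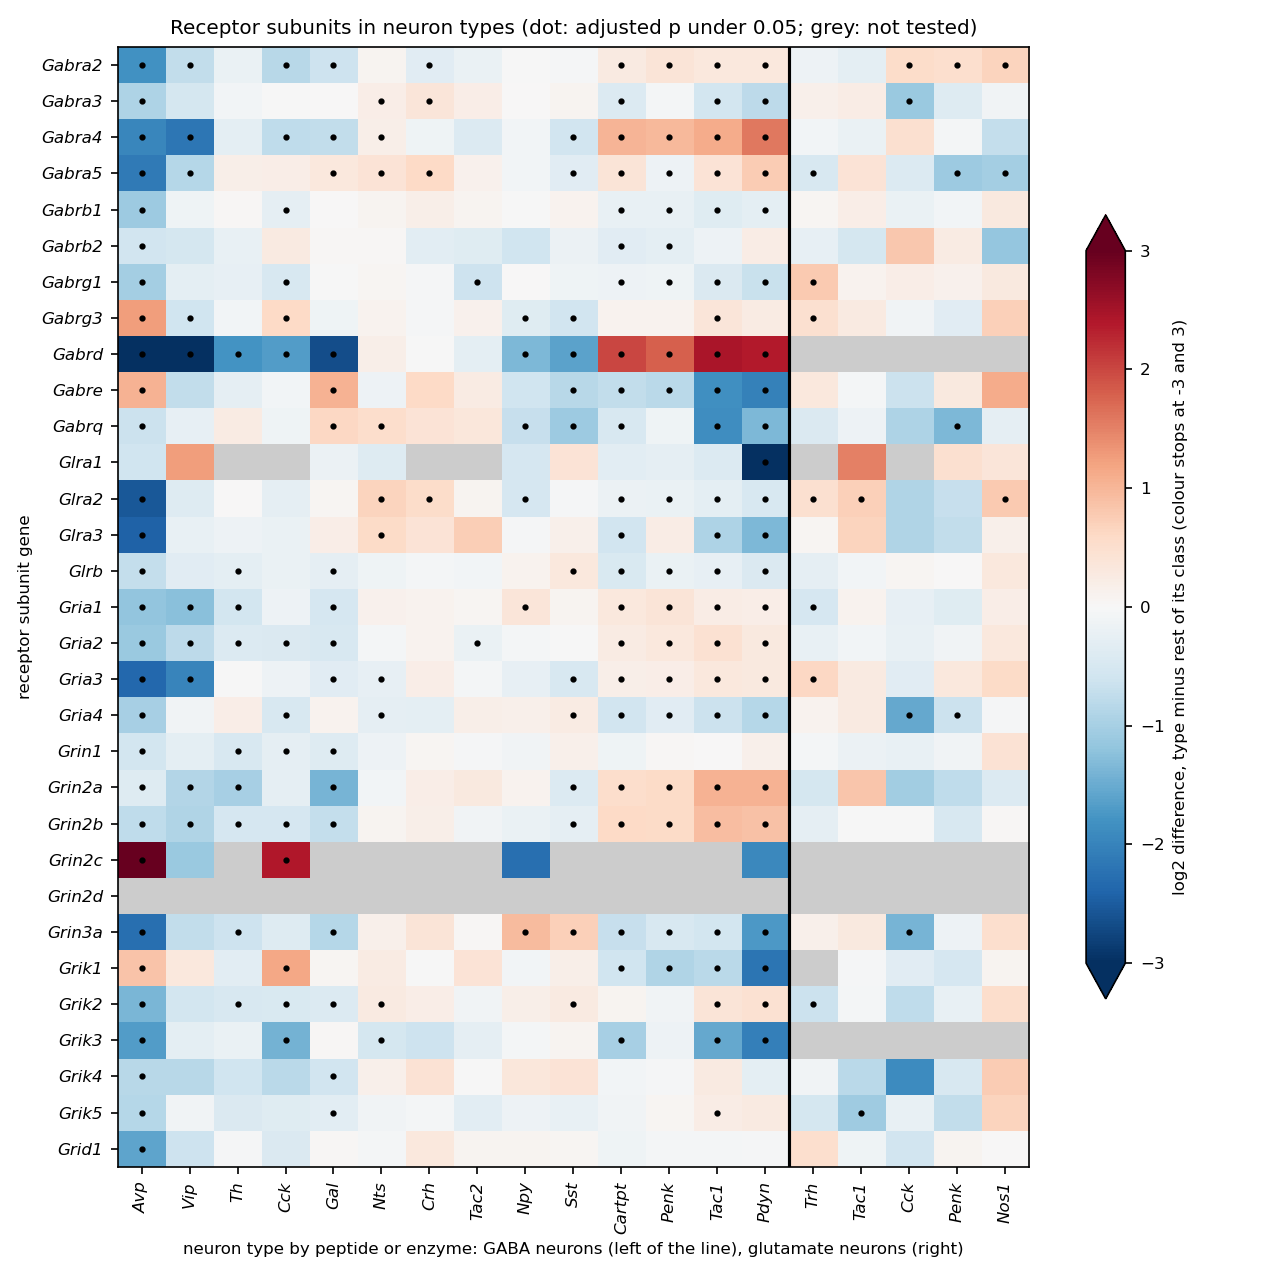
Columns are neuron types, rows are the 31 subunit genes, and colour gives the log2 difference of the type from the rest of its transmitter class (red higher, blue lower, stopping at -3 and 3), with a dot for an adjusted p under 0.05 and grey for genes not tested. The Avp column is called lower (blue with a dot) for 25 of 30 tested genes, with Grin2c red, and the Cartpt, Penk, Tac1 and Pdyn columns share red for Gabrd.

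Avp neurons, which make the antidiuretic hormone vasopressin, had the most lower calls of any type. Of 30 members tested in 497 cells from 5 libraries, 25 were lower and 4 higher than in other GABA neurons, where 49% of all genes were called, 19.4% higher and 29.6% lower. Their median was -1.01, beside -0.12 over all genes. The lower ones were 9 of 11 GABA-A, 3 glycine, all 4 AMPA, 4 NMDA and 4 kainate subunits and Grid1. The 8 genes of the neuron panel were also lower in sum, at 3201 to 4605 CPM in Avp neurons and 5608 to 6147 in the rest, and Avp alone took 1.10% to 2.31% of their UMIs. The part of these in the result was not tested.

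Grin2c was the largest increase in Avp neurons. It stood at 18.1, 18, 23.1, 24.6 and 28.6 CPM in female libraries 1 and 2 and male libraries 1, 2 and 3, against 0.673, 1.18, 0.971, 1.24 and 0.291 in other GABA neurons. All Avp values lay above all others, and the difference was 4.52 ± 0.32 (adjusted p = 2.1e-14), and 4.51 without the Ppp1r1b cells. At least 1 UMI was found in 15.1% of Avp cells, beside 1.3% of all GABA neurons, 17.9% of astrocytes and 0.493% of mature oligodendrocytes, at median depths of 7575, 7191.5, 2902.5 and 4865 UMIs. With cells thinned to 2000 UMIs, the shares were 5.23%, 0.424%, 11.4% and 0.132%. The astrocyte panel was no higher in Avp neurons, at 14.3 to 63.9 CPM beside 25.9 to 92.6 in the rest.

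Several inhibitory subunits and Gria3 were low in Avp neurons. Glra2 was at 6.45, 12.4, 8.87, 17.2 and 0 CPM in the order of libraries above, against 70.2, 68.4, 63.6, 78.0 and 79.4 (-2.54 ± 0.19, adjusted p = 1.0e-13). The 2 sets did not overlap. Gria3 averaged 14.5 ± 11.1 beside 106 ± 13.4 (-2.36 ± 0.18, adjusted p = 8.1e-14), and Grin3a 6.24 beside 43.4 (-2.26 ± 0.21, adjusted p = 3.7e-11). Gabrd rested on 6 UMIs (-3.31 ± 0.41, adjusted p = 1.6e-08), against a rest that held the Ppp1r1b cells, and Glra3 on 7 (-2.43 ± 0.46). Gria2, named after its value was seen, was lower in each library (-1.10 ± 0.07, adjusted p = 7.9e-16).

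The other 3 higher members in Avp neurons were also named after their values were seen. Gabrg3 was at 130, 135, 213, 170 and 114 CPM against 71.0, 73.0, 71.5, 80.6 and 47.4 (1.25 ± 0.10, adjusted p = 1.2e-12). All Avp libraries were above all others. Gabre averaged 25.0 ± 7 beside 11.7 ± 2.07 (1.03 ± 0.21, adjusted p = 0.0001) and Grik1 22.9 beside 13.6 (0.86 ± 0.20, adjusted p = 0.00042). Ppp1r1b cells were 1.01% of the Avp neurons and 20.7% of the rest. Without them 27 of 28 tested members were called, 4 higher and 23 lower, all in the direction they had before, where 47.5% of all genes were called. The gene Rgs16, known from the suprachiasmatic nucleus, stood at 100 to 498 CPM in Avp neurons and 26.1 to 49.2 in the rest. Avp cells of different nuclei were not told apart. Of the partner list 5 genes were higher and 19 lower of 34 tested in Avp neurons, where 49% of all genes were called. Of all 11377 genes tested there, 2209 were higher and 3371 lower.

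**Figure D5:**
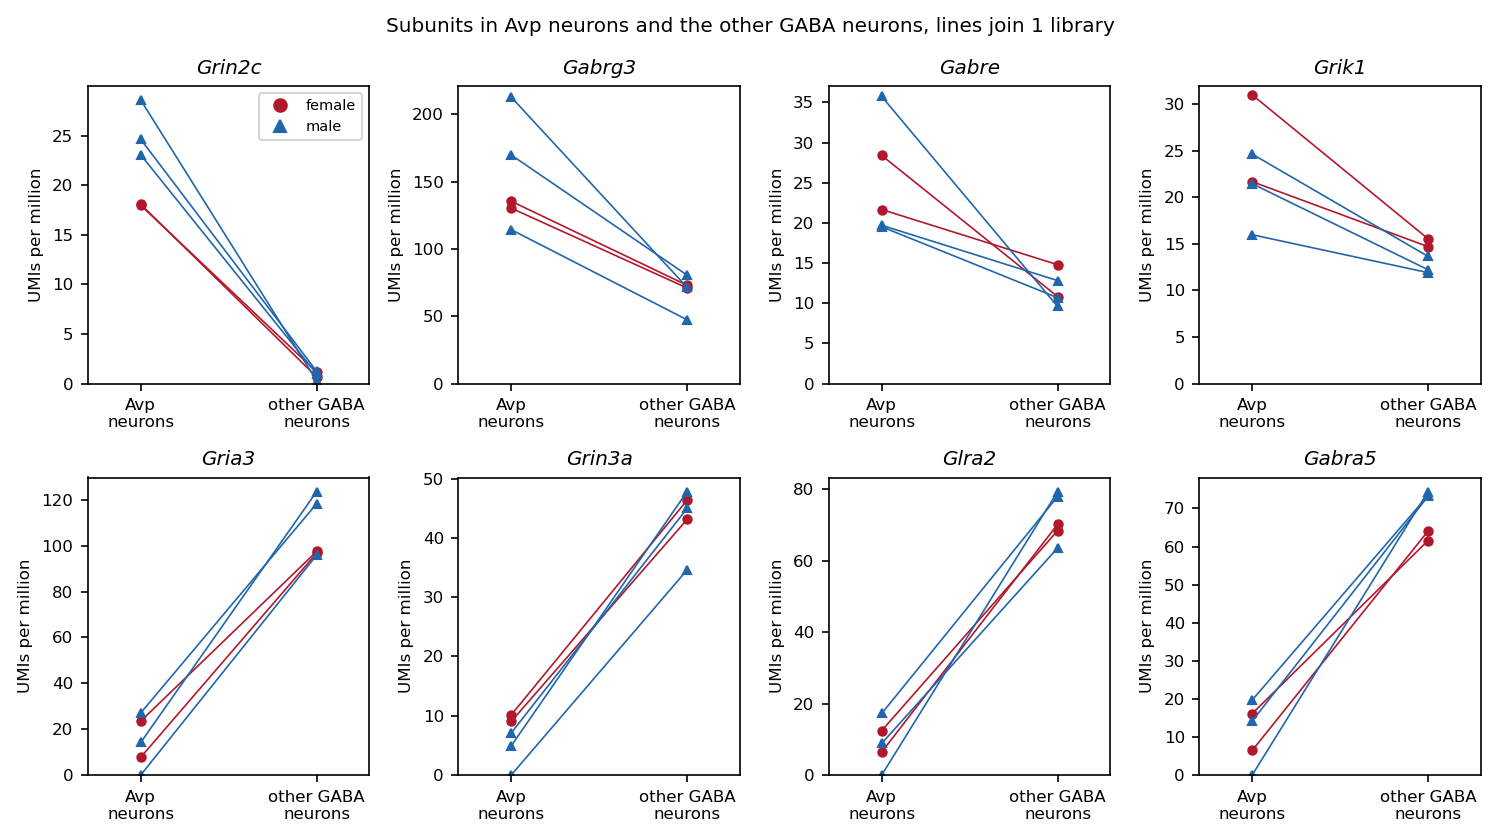
Lines join Avp neurons and the other GABA neurons of 1 library (circles female, triangles male), with CPM on the vertical axis, for 8 subunits. Grin2c, Gabrg3, Gabre and Grik1 are higher in Avp neurons, by 4.52, 1.25, 1.03 and 0.86 on the log2 scale, and Gria3, Grin3a, Glra2 and Gabra5 are lower.

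Cck and Vip neurons shared some of these differences with Avp neurons. In Cck neurons 3 of 29 members were higher and 11 lower (of all genes 15.8% were called, 8.63% higher and 7.21% lower). Grin2c averaged 8.10 ± 1.40 beside 1.40 ± 0.324 CPM (2.41 ± 0.38, adjusted p = 4.0e-05), Grik1 27.8 beside 13.4 (1.15 ± 0.17) and Grik3 6.01 beside 22.0 (-1.41 ± 0.24). Avp and Cck neurons had 42 cells in common, 8.45% of the former and 11.1% of the latter. Vip neurons, which make vasoactive intestinal peptide, had 10 of 30 members lower and none higher (of all genes 11% were called, 5.01% higher and 5.99% lower). In 4 libraries Gabra4 averaged 12.2 beside 63.7 (-2.17 ± 0.30, adjusted p = 6.8e-11), Gria3 21.3 beside 107 (-1.98 ± 0.23) and Gria1 106 beside 253 (-1.26 ± 0.14, adjusted p = 2.3e-16). Gabrd had 0 UMIs in Vip neurons, which was at least 6.92-fold lower at a floor of 3 UMIs over the group (2.39 CPM). That bound is against a rest with 20.1% Ppp1r1b cells, beside 1.45% in Vip neurons. It was not set without these cells, so it does not show a lower Gabrd than in GABA neurons that lack Ppp1r1b. Without the Ppp1r1b cells Gabra4, Gria3 and Gria1 were at -1.59, -1.84 and -1.10 in Vip neurons, and 9 members were lower, 7 of them called before (9.66% of all genes called). In Cck neurons Grin2c, Grik1 and Grik3 were then at 2.23, 0.98 and -1.62, and 3 members were higher and 11 lower, 11 of them called the same way before (15.6% of all genes called). The neuron panel was at 4109 to 5184 CPM in Vip neurons and 5437 to 6107 in the rest, and its part was not tested.

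Galanin neurons, known for parental behaviour and sleep, had lower NMDA subunits. Of 29 members 3 were higher and 14 lower (of all genes 34.8% were called, 17.3% higher and 17.6% lower), and the lower ones included all 4 NMDA genes tested. Grin2a averaged 18 ± 2.86 beside 47.8 ± 6.76 CPM (-1.38 ± 0.11, adjusted p = 1.1e-12), Grin3a 21.7 beside 43.7 (-0.86 ± 0.11) and Grin2b 114 beside 198 (-0.72 ± 0.06). Gabre, the epsilon subunit, was higher at 22.7 ± 4.20 beside 11.4 ± 1.70 (1.04 ± 0.14, adjusted p = 2.2e-07). Without the Ppp1r1b cells these 4 differences were -1.07, -1.05, -0.36 and 0.78, and 3 members were higher and 13 lower of 28, all 16 called the same way before (30.3% of all genes called). Dopaminergic-type neurons set by Th, 45.0% of which were also galanin neurons, had 9 lower members and none higher of 28 (of all genes 13.9% were called, 6.98% higher and 6.95% lower), among them Grin2a (-0.99 ± 0.19, adjusted p = 0.00018) and Gria1 (-0.56 ± 0.09, adjusted p = 9.4e-06). With the Ppp1r1b cells left out, 6 of 27 were lower in Th neurons, all 6 called before (10.3% of all genes called), with Grin2a at -1.09 and Gria1 at -0.52.

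Neurotensin and Crh neurons had higher Glra2 and Gabra5. Nts neurons had 7 higher and 3 lower members of 29 (of all genes 17.6% were called, 10.4% higher and 7.19% lower): Glra2 averaged 101 ± 7.72 beside 65.9 ± 6.95 CPM (0.67 ± 0.06, adjusted p = 3.0e-09), Gabra5 91.4 beside 64.6 (0.42, adjusted p = 0.00011) and Gabrq 38.6 beside 28.9 (0.53, higher in 4 of 5 libraries). With the Ppp1r1b cells left out, these were at 0.83, 0.53 and 0.65, and 8 members were higher and 4 lower of 28, 8 of them called the same way before (17.6% of all genes called). In Crh neurons, which make the stress peptide corticotropin-releasing hormone, 3 were higher and 1 lower of 28 (of all genes 6.24% were called, 3.04% higher and 3.21% lower). Gabra5 averaged 111 ± 34.6 beside 66.2 (0.60 ± 0.11, adjusted p = 1.1e-05). Glra2 averaged 106 beside 68.7 (0.54 ± 0.11, adjusted p = 0.00011), but it was at 0.36 without the Ppp1r1b cells and at -0.08 with cells thinned to 2000 UMIs, and was called in neither. Without Ppp1r1b cells 2 members were higher and 1 lower of 30 in Crh neurons, all 3 called the same way before (4.68% of all genes called).

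Somatostatin and neuropeptide Y neurons had higher Grin3a. Sst neurons had 4 higher and 9 lower members of 29 (of all genes 18.7% were called, 10.4% higher and 8.39% lower), with Grin3a at 64.8 ± 11.6 beside 40.7 ± 4.86 CPM (0.72 ± 0.09, adjusted p = 1.5e-10). Gabrq, the theta subunit, was lower at 13.6 beside 30.9 (-1.08 ± 0.14, adjusted p = 1.2e-09), and so was Gabrg3 (-0.57, adjusted p = 3.2e-07). Without the Ppp1r1b cells these were at 0.60, -1.29 and -0.44, and 3 members were higher and 6 lower of 28, 8 of them called the same way before (16.7% of all genes called). Npy neurons had 2 higher and 4 lower of 30 (of all genes 8.06% were called, 4.62% higher and 3.44% lower), with Grin3a at 82.0 ± 6.11 beside 43.2 ± 2.13 (0.95 ± 0.12, adjusted p = 8.2e-12) and Gria1 at 310 beside 250 (0.37 ± 0.07). Leaving out the Ppp1r1b cells put these at 0.94 and 0.48, where 2 members were higher and 2 lower of 30, all 4 called the same way before (6.43% of all genes called). In Tac2 neurons, which make neurokinin B, 2 of 28 were lower (of all genes 3.92% were called, 2% higher and 1.92% lower), among them Gabrg1 at 58.7 ± 24.7 beside 106 ± 10.5 (-0.62 ± 0.11, adjusted p = 5.9e-05). Gabrg1 was at -0.60 in Tac2 neurons without the Ppp1r1b cells, and 1 member was higher and 1 lower of 27, 1 of them called the same way before (4.29% of all genes called).

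The GABA types set by Tac1, Penk, Pdyn and Cartpt shared high Gabrd. Gabrd averaged 57.5 ± 11.2 beside 12.8 ± 5.84 CPM in Tac1 neurons (2.44 ± 0.09), 44.0 beside 12.9 in Penk neurons (1.79 ± 0.09), 78.2 ± 11.9 beside 15.5 in Pdyn neurons (2.37 ± 0.16) and 47.7 beside 13.2 in Cartpt neurons (2.00 ± 0.10). Gabra4 was higher in Tac1 (1.12), Cartpt (1.01) and Penk neurons (0.96). Among the GABA types its mean level was highest in Pdyn neurons, at 179 ± 26.8 CPM. Tac1 neurons had 12 higher and 12 lower of 29 (of all genes 52.6% were called, 25.1% higher and 27.6% lower). Penk neurons had 8 higher and 10 lower of 29 (of all genes 38.7% were called, 17.9% higher and 20.8% lower). Pdyn neurons had 10 higher and 13 lower of 30 (of all genes 29.8% were called, 13.3% higher and 16.5% lower). Cartpt neurons had 9 higher and 13 lower of 29 (of all genes 42.6% were called, 22.1% higher and 20.5% lower). In Tac1 neurons Gabrq (-1.87), Gabre (-1.83) and Grik3 (-1.55) were lower. These types were rich in Ppp1r1b cells, which made up 72.4%, 48.2%, 87.8% and 59.1% of them and 12.4%, 13.7%, 18.7% and 15.7% of the rest. Without those cells 2 members were called in Tac1, 8 in Penk and 5 in Cartpt neurons, where 7.08%, 9.99% and 14.8% of all genes were called, and 2, 5 and 3 of them were called the same way before. In Penk neurons Gria3 was then called lower (-0.28, adjusted p = 0.0044) where it had been called higher, and Gabrq (0.43, adjusted p = 0.00034) and Gabra3 (0.21, adjusted p = 0.031) were called higher where they had not been called. In Cartpt neurons Gabrq was then called higher (0.37, adjusted p = 0.019) where it had been called lower, and these genes were named after their values were seen. Gabra4 was at 0.09, 0.37 and 0.21 in the 3 types, and Pdyn neurons could not be tested. Penk neurons kept a higher Gabrd without them (1.04, adjusted p = 0.0079).

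Glutamate types were smaller and gave fewer calls. Trh neurons, which make thyrotropin-releasing hormone, had 4 higher and 3 lower members of 25 (of all genes 6.9% were called, 3.36% higher and 3.54% lower). Gabrg1 averaged 135 ± 34.7 beside 77.2 ± 12.7 CPM (0.78 ± 0.11, adjusted p = 1.7e-07), Gria3 116 beside 79.6 (0.62 ± 0.12, adjusted p = 9.9e-05) and Gria1 125 beside 179 (-0.50 ± 0.11, adjusted p = 0.00045). Cck glutamate neurons had 1 higher and 3 lower of 26 (of all genes 7.21% were called, 4.3% higher and 2.91% lower), and Gria4 was at 30.2 ± 2.84 beside 95.8 ± 11 (-1.53 ± 0.27, adjusted p = 8.2e-05). Penk glutamate neurons had lower Gabra5 (-1.10 ± 0.25, adjusted p = 0.0026), a call lost without female library 2 (-1.07), and gave 1 higher and 3 lower calls of 27 (of all genes 7.53% were called, 4.38% higher and 3.15% lower). In Nos1 neurons, which make nitric oxide, Gabra2 was higher (0.66), a call lost without female library 1 (0.61), female library 2 (0.78) or male library 2 (0.58). They gave 2 higher and 1 lower of 27 (of all genes 1.25% were called, 0.703% higher and 0.542% lower). Tac1 glutamate neurons had 1 higher and 1 lower of 27 (of all genes 1.72% were called, 0.862% higher and 0.862% lower), Glra2 (0.71) and Grik5 (-1.07). The Glra2 call was lost without female library 1 (0.68), female library 2 (0.62) or male library 1 (0.67), and the Grik5 call without female library 1 (-0.98), female library 2 (-1.27) or male library 1 (-0.94).

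The sexes were compared in each class over 3 female and 3 male libraries (2 and 3 for glutamate neurons). Without a replicate block, no member was called in GABA neurons, glutamate neurons, astrocytes or precursors, of 30, 28, 10 and 19 tested, by edgeR's quasi-likelihood test or by DESeq2. In GABA neurons, astrocytes and precursors the library numbers were taken to pair the libraries, and this fit leaves that pairing out. All genes gave few calls too, at 0.0485%, 0.0805%, 0.0519% and 0.0536%. At an unadjusted p under 0.05 there were 1, 3, 0 and 0 members, beside 7.17%, 7.81%, 2.37% and 2.48% of all genes tested. The smallest p in GABA neurons was that of Grid1, at 23.9, 28.1 and 18.7 CPM in female libraries 1, 2 and 3 and at 29.4, 34.6 and 34.1 in male libraries 1, 2 and 3. The groups did not overlap, and the difference, female minus male, was -0.30 ± 0.13 (edgeR's adjusted p = 0.67). Grik1 was next (0.30 ± 0.14, adjusted p = 0.70).

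With the library number as a replicate block, 5 members were called in GABA neurons, each lower in females. They were Gabra5 (-0.25, adjusted p = 0.040), Gria3 (-0.32, adjusted p = 0.0038), Grik3 (-0.38, adjusted p = 0.016), Grik5 (-0.26, adjusted p = 0.030) and Grid1 (-0.28, adjusted p = 0.047), where 7.21% of all genes were called. Of all genes, 390 were called higher and 650 lower in females, so lower calls were also the more common ones among all genes. Female library 3, with 74 GABA neurons, was the lowest for Gabra5 at 34.8, beside 61.7 and 59.1 in the other female libraries and 71.7, 72.3 and 71.5 in the male ones. It was also the lowest for Gria3 at 58.9. With the block no member was called in astrocytes or precursors, where 0.0519% and 0.343% of all genes were called. Without the block, the smallest p in glutamate neurons was that of Grik2 (-0.51 ± 0.19, adjusted p = 0.56), and Grik1 was next (0.69 ± 0.29, adjusted p = 0.63). In astrocytes the first in order were Grin2b (-0.61 ± 0.35) and Glrb (-0.63 ± 0.41), and in precursors Gabra4 (0.75 ± 0.36) and Grik3 (0.52 ± 0.35, adjusted p = 1).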

How the data were processed

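Single cells were measured in 6 libraries, 3 from female and 3 from male pools. The deposited values are raw UMI counts per gene and cell barcode, made by the authors with Cell Ranger 2.0.0 on mm10, per the submitters' processing notes. No source used here gives the annotation, the chemistry or the strand setting. The 31 members, the marker panels, the peptide types and the list of partner genes were chosen with earlier results of these data known.

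Barcodes with at least 500 genes and at most 20% mitochondrial UMIs were kept, 30824 of 31299. The libraries held 33230552, 81162330 and 1278429 UMIs (female 1, 2 and 3) and 45331338, 47403686 and 8859754 UMIs (male 1, 2 and 3) in the cells kept. Libraries shared 479 of 30815 barcode sequences, and 56 symbols occurred more than once among the genes. A class needed at least 4 of 8 panel markers and 2 more than any other panel, which also leaves out cells with 2 panels as possible doublets, and Scrublet (expected rate 0.06) marked 1002 cells (3.25%), left out as an alternative. GABA neurons had at least 3 UMIs of Gad1, Gad2 and Slc32a1 and none of Slc17a6 or Slc17a7. Glutamate neurons had at least 2 of Slc17a6, none of Slc32a1 and at most 1 of Gad1 and Gad2. Peptide types needed 5 UMIs, enzyme types 3.

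UMIs were summed per library and class where it held at least 10 cells. Comparisons needed 4 libraries with 2 of each sex, or used all libraries with both classes. edgeR 4.0.16 (R 4.3.3; TMM scaling, filterByExpr, quasi-likelihood test) was fitted over all genes with Benjamini-Hochberg adjustment and the library as a covariate in comparisons within libraries. Libraries are pools, so p-values measure the spread between pools, and intervals on UMIs or shares cover counting error only. In bulk sums of a class, fewer expressing cells and less RNA per cell cannot be told apart. Make-up shares were compared by exact paired permutation tests in scipy 1.17.1. All 31 members could be named between classes. In each neuron type the named members are among the 6 called ones with the largest differences, and others are said to be named after their values were seen. Of the partner list up to 3 called genes per direction are named, and of the sex comparisons the 2 members with the smallest p.

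The sex comparisons were fitted without a replicate block, and again with it. Same-numbered female and male libraries deviated together, with correlations of deviations of 0.277, 0.195 and 0.258 in GABA neurons, 0.138, 0.106 and 0.154 in astrocytes and 0.203, 0.134 and 0.199 in precursors, so the numbers were taken to pair the libraries there. That pairing comes from the data, not the labels, and only the fit with the block keeps it. In glutamate neurons, with 2 pairs, it was not taken to hold. Alternatives were RLE scaling, no filter, DESeq2 1.42.0, a stricter class gate (5 markers and 3 more than others), peptide thresholds of 3 and 10 UMIs, cells thinned to 2000 UMIs, each library left out and the block. On simulated counts with 200 changed genes, 2-fold changes were recovered for 96.5% of them in GABA against glutamate neurons (12367 genes) and 88% in the sex comparison of GABA neurons (14426 genes), and 1.5-fold changes for 78.5% and 50.5%. The simulated libraries kept the real depths but shared 1 mean profile and a trended dispersion, with no other difference between libraries. These shares therefore do not give the power in the real libraries.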

Additional observations from a re-analysis of the deposited data

Results flagged for a closer look

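Newly formed oligodendrocytes and microglia were not among the classes compared above, and the members named below stood higher there than in any library of mature oligodendrocytes. The share of all genes that did so was not counted, so this is not shown to be particular to these members. These differences were not tested. In newly formed oligodendrocytes (236 cells, 5 libraries) Gria2 averaged 699.7 ± 89.2 (SD) CPM (UMIs per 1000000 UMIs), with a lowest library of 588 beside a highest mature library of 93.5. Glrb averaged 544 ± 114 there, with a lowest library of 470 beside 313. Gria3 averaged 51.7, with a lowest library of 33.2 beside 11.1. Grik2 averaged 41.2, with a lowest library of 29.3 beside 18. Grid1 averaged 28.7, with a lowest library of 6.87 beside 3.56. Gria2 thus stood near its precursor level (610 ± 84.3) in the newly formed cells, and Glrb above both its precursor and its mature level.

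In microglia Glra1, the glycine receptor alpha1 subunit, averaged 18.9 ± 9.54 CPM over 6 libraries, from 65 UMIs in all. Its lowest library was at 9.36, beside a highest mature oligodendrocyte library of 1.62.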

How the results depend on the processing

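Of 3614 alternative values for 305 called member results, 3201 kept their direction and their call, 385 lost the call and 28 reversed, and 2 members not called before (Gabra3 and Gabrq in Penk neurons) were called with the opposite sign without Ppp1r1b cells. Thinned cells accounted for 85 of the lost calls and the removal of Ppp1r1b cells, added after seeing the data, for 52, and the cause was not tested. The member calls fell from 18 to 11 in precursors against mature oligodendrocytes with thinned cells, where 13 members could be tested, and over the 19 neuron types from 221 to 138 with thinned cells. In the 13 types that could be fitted without Ppp1r1b cells they fell from 178 to 117, and the share of all genes called in each type is given above. With no filter 16 members were called in astrocytes against mature oligodendrocytes in place of 9, and leaving out each library in turn gave 9 to 14 there. No share of all genes is given here beside the counts with thinned cells, with no filter or over the libraries left out. Those counts therefore do not single out these members. With no replicate block 8 members were called between GABA and glutamate neurons in place of 16. With the replicate block 5 members were called between the sexes in GABA neurons and 1 (Grik2, -0.62, adjusted p = 0.035, where 1.03% of all genes were called) in glutamate neurons in place of 0, and the block changed no other sex call. The small libraries limit what can be tested: 9 of 31 members passed the count filter in astrocytes against mature oligodendrocytes, and 18 without female library 3.

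Without Ppp1r1b cells the reversed log2 values in Tac1 neurons were 0.040 for Gabrb1, -0.13 for Gabrg3, 0.12 for Glra2, 0.16 for Glra3, -0.030 for Gria3, 0.062 for Gria4, 0.12 for Grin3a, 0.51 for Grik1 and -0.14 for Grik5. In Cartpt neurons they were -0.034 for Gabra2, 0.012 for Gabra3, 0.021 for Gabrg1, 0.12 for Gabre, 0.37 for Gabrq (adjusted p = 0.019), 0.089 for Glra2, 0.11 for Glra3, -0.11 for Gria3, -0.052 for Grin2a and 0.19 for Grik1. In Penk neurons they were 0.21 for Gabra3 (adjusted p = 0.031), 0.029 for Gabrg1, 0.43 for Gabrq (adjusted p = 0.00034), 0.090 for Glra2 and -0.28 for Gria3 (adjusted p = 0.0044). They were also -0.13 for Gabra4 in Nts, 0.15 for Gabrd in Npy and 0.067 for Grin2a in Avp neurons. With thinned cells Glra2 in Crh neurons was at -0.082, and Gabra2 and Gria1 in Pdyn neurons at -0.095 and -0.0079.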
